A study of Mus musculus with 42 samples.

Results

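The 32 unfolded protein response genes described here were followed as read counts in mouse liver, 32 of the 55573 gene IDs counted in both arms of the study. They were taken by symbol and sorted by role into 14 folding genes (chaperones, oxidoreductases and their partners), 4 sensors and transcription factors, 5 genes of the ATF4 arm, 7 genes of ER-associated degradation and 2 translocon genes. All 32 passed the filter on low counts in both arms. The livers came from male C57B6/J mice on 4 treatments: a vehicle, the adrenal steroid corticosterone (CORT), which is the glucocorticoid of rodents, the androgen receptor blocker enzalutamide (ENZA), or CORT with ENZA. The acute arm has 4 groups (vehicle, CORT, ENZA, CORT+ENZA) and the chronic arm 3 (vehicle, CORT, CORT+ENZA), each of 6 mice, 42 livers in all. A chronic group given ENZA alone was not analysed here. The labels state neither dose, route and length of treatment nor the age of the mice. Acute RNA was extracted with a Qiagen kit and chronic RNA with a Macherey-Nagel kit, so duration and kit cannot be told apart, and levels are compared within an arm only.

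The endoplasmic reticulum (ER) folds secreted and membrane proteins, and hepatocytes, which make most plasma proteins, carry a large load of them. When unfolded proteins build up there, the membrane sensors IRE1 (gene Ern1), PERK (Eif2ak3) and ATF6 respond: IRE1 splices the messenger RNA of Xbp1 into the form that encodes an active transcription factor, ATF6 is cut in the Golgi to release another, and PERK slows general translation while ATF4 protein is made. The resulting factors raise chaperones such as BiP (Hspa5), genes that carry misfolded proteins out for degradation, and amino acid and redox genes. Counts per gene do not show whether Xbp1 messenger RNA was spliced or whether ATF6 was cut, and ATF4 is controlled largely in translation.

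A short sequence read by ATF6 and XBP1, the ER stress response element (ERSE, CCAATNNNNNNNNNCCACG), links several members. RefSeq windows (GRCm38.p6) from 250 bases before to 50 after a gene's start were available for 28 of the 32 members, and both strands were searched. The ERSE was present in 9 of the 28 (32.1%) against 39 of all 32851 windows (0.119%), and in 7 of the 12 folding genes with a window. Here and below, the share of members counts genes, while the other share counts windows, those of the members included. The members were listed as genes of this response, so these shares are a description and no test. The 10 matches are shown because they are the letters the folding genes and the degradation genes Syvn1 and Derl3 have in common, each read 5′ to 3′ in the direction of the motif, with CCAAT and CCACG in capitals.
Hspa5, chr2:34772025-34772043, + strand: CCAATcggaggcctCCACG
Hsp90b1, chr10:86705638-86705656, - strand: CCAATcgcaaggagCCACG
Hsp90b1, chr10:86705533-86705551, + strand: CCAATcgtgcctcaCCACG
Calr, chr8:84847075-84847093, + strand: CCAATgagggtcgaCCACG
Canx, chr11:50325800-50325818, - strand: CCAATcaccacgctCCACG
Pdia6, chr12:17266491-17266509, + strand: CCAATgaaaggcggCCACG
Dnajc3, chr14:118937827-118937845, + strand: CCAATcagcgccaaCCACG
Creld2, chr15:88819520-88819538, - strand: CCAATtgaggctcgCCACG
Syvn1, chr19:6046532-6046550, + strand: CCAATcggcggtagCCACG
Derl3, chr10:75893242-75893260, - strand: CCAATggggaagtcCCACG

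The match lay 65 bases before the start of Hspa5 and between 44 (Syvn1) and 212 (Hsp90b1) bases before the other starts. A related motif, ERSE-II (ATTGGNCCACG), was in 2 members, Dnajb11 and Herpud1 (7.14% against 0.0365% of all windows). The core of the XBP1 motif, TGACGTG, was in 1 (3.57% against 2.01%). The C/EBP-ATF element read by ATF4 (CARE, TGATGNAA) was in 4, Trib3, Chac1, Asns and Herpud1 (14.3% against 3.97%), of which 3 belong to the 5 genes of the ATF4 arm. A match is a description of these letters and not a measured site. The stretches before the starts of Hspa5 (chr2:34771915-34772089, + strand), Herpud1 (chr8:94386304-94386428, + strand) and Asns (chr6:7693210-7693254, - strand) are shown because they carry the chaperone motif, both kinds of motif and the ATF4 motif alone; capitals mark the matches, and the first one in Herpud1 reads on the other strand.
Hspa5: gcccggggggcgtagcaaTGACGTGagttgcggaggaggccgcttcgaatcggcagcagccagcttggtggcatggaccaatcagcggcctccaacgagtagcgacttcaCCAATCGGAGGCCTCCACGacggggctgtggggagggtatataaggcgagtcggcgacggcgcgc
Herpud1: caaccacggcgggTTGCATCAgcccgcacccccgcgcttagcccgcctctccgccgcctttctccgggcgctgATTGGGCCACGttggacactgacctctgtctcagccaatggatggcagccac
Asns: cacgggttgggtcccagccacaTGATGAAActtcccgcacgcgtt

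In vehicle livers the members spanned more than 2 orders of magnitude in level per length (mean CPM per kb of exon, where CPM is a gene's count relative to library size, scaled by TMM within an arm). Calr, the lectin chaperone calreticulin, was highest in both arms at 272 (acute) and 284 (chronic) CPM per kb. Acute vehicle livers followed with Herpud1, a degradation scaffold, at 168, Xbp1 at 107, the HSP90 chaperone Hsp90b1 at 98.9 and the disulfide isomerase Pdia3 at 98.5 CPM per kb. At the low end of the acute vehicle group stood Derl3 at 2.53, the PERK gene Eif2ak3 at 2.19, Ddit3 (the factor CHOP) at 2.17, Chac1, which degrades glutathione, at 2.16 and Asns (asparagine synthetase) at 1.53 CPM per kb; the spread of the mice is wider than the gaps between these 5. Chronic vehicle livers ranked Hspa5 second at 249, before Herpud1 at 198 and Hsp90b1 at 194 CPM per kb, and Derl3 (1.26) and Asns (1.25) lowest. The mean of Derl3 includes mouse 10 at 8.33 CPM, where the median of its group was 1.49 CPM, so the order of these last genes holds by mean only. The ATF4 arm thus held the factor itself at 40.8 and 38.9 CPM per kb (acute, chronic) and 4 genes under 6.

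**Figure D1:**
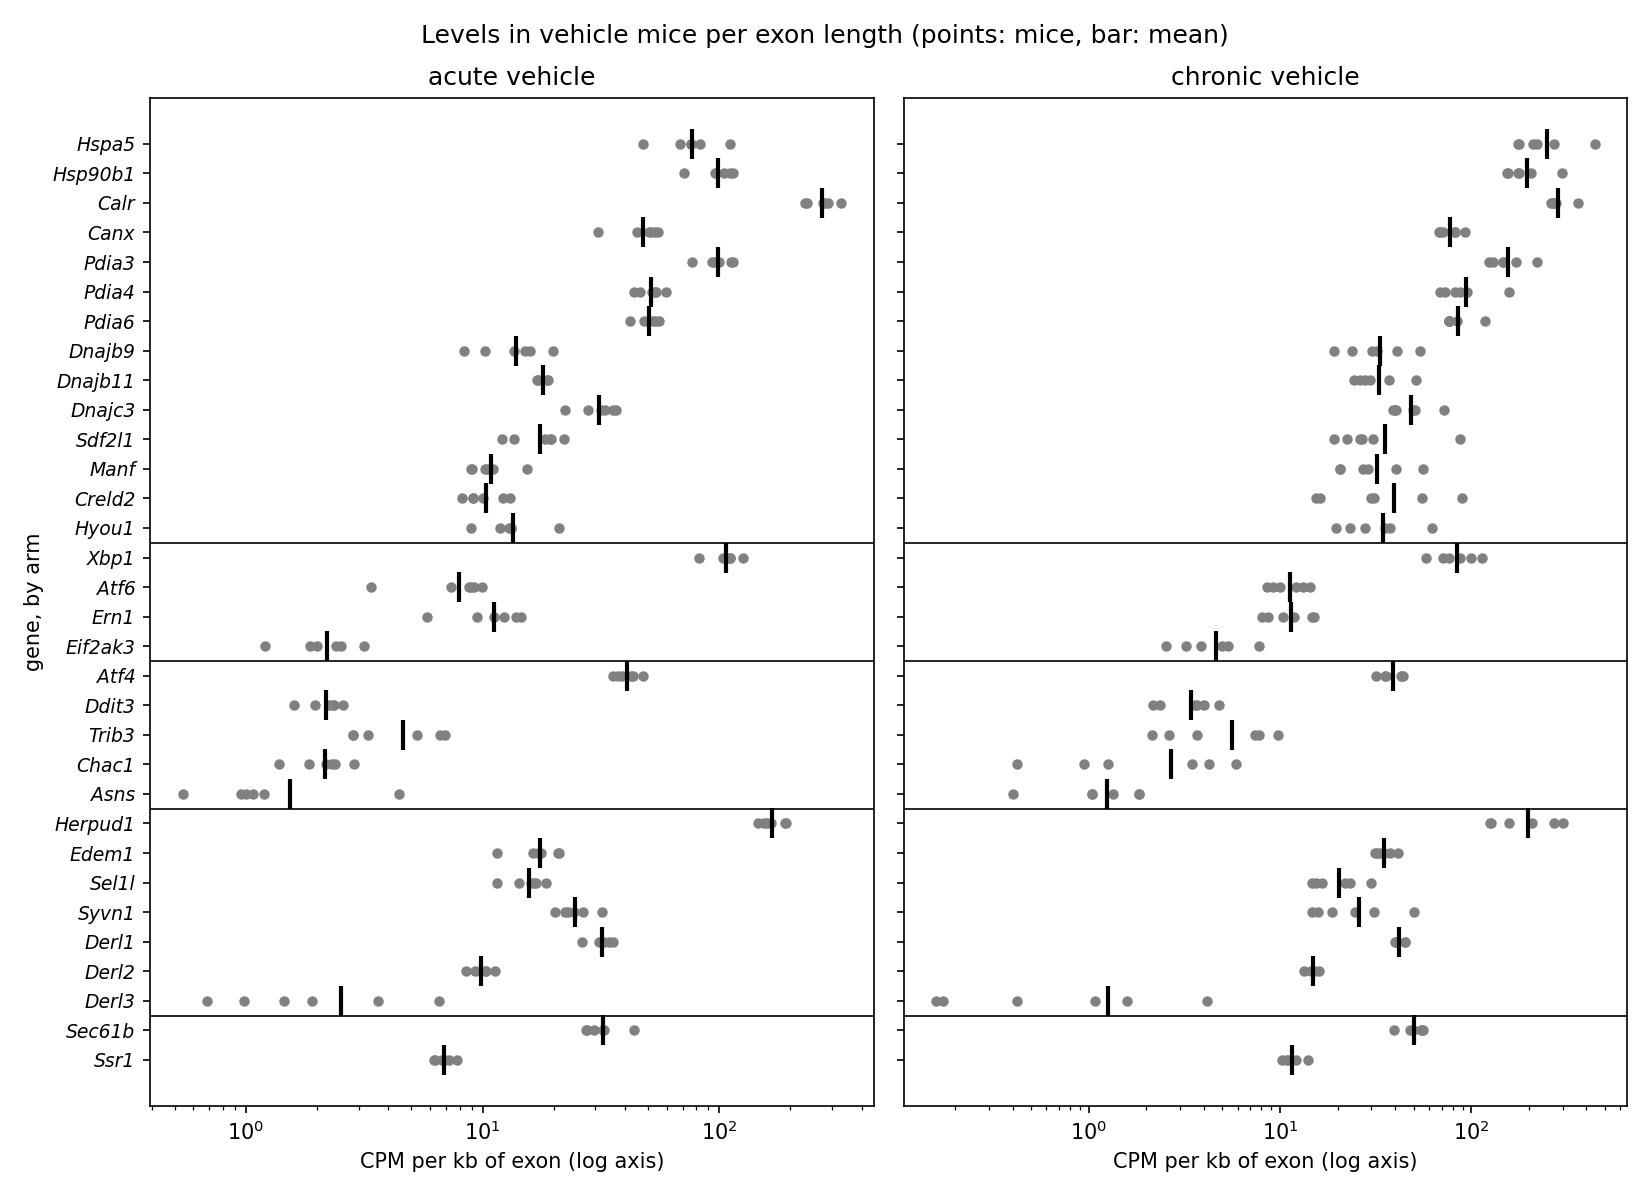
Level of each member per kb of exon (log axis) in the 6 acute and 6 chronic vehicle mice, grouped by role; points are mice and bars are means. By mean, Calr is highest in both arms at 272 and 284 CPM per kb, and Asns lowest at 1.53 and 1.25.

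Depth per liver lay between 18674151 and 20464521 gene counts (acute) and between 15381724 and 19581723 (chronic). The 8 hepatocyte markers summed to 70065 to 156072 CPM over all mice and were lowest in chronic CORT+ENZA (70065 to 88651, against 111631 to 147402 in chronic vehicle). In bulk liver, fewer cells of a type and less RNA per cell cannot be told apart. Some mice stood apart over all genes, in both directions. Acute vehicle mouse L19A was the lowest of its group in 31.5% of genes and the highest in 31.7%. Acute CORT+ENZA mouse L36A was lowest in 30.8% and highest in 29.8%. For chronic vehicle mouse 11 the shares were 24.9% and 23.5%, and for chronic CORT+ENZA mouse 18 they were 31.5% and 27.9%. Exons of 9 members overlap a gene on the other strand, among them Ddit3 with Mars, Derl2 with Mis12, Syvn1 with Mrpl49, Manf with Dcaf1, Hsp90b1 with 1810014B01Rik and Eif2ak3 with Gm43292, and Ddit3 also overlaps another ID with its own symbol. The labels do not say whether the counting used strand, so counts of these genes are less certain.

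Single mice carried much of the spread in the folding genes. Chronic vehicle mouse 10 was the highest of its group in 14 of 14 folding genes and in 27 of 32 members, against 15.0% of all genes. Its Hspa5 level was 1865 CPM, where the other 5 vehicle mice had 745 to 1141, and its level of Sdf2l1, a partner of ER chaperones, was 97.0 against 21.2 to 33.8. Its sum of hepatocyte markers was not the highest or lowest of its group, while its sum of stellate markers was the highest (258 CPM). It also had the lowest depth of any library (15381724 gene counts). The part of either in its values was not tested. Chronic CORT mouse 3 was highest in 12 of 14 folding genes and mouse 2 lowest in 11, chronic CORT+ENZA mouse 17 was lowest in 12, and acute CORT+ENZA mouse L6A was highest in 11. The median SD over the folding genes within the chronic vehicle group was 0.41 on the log2 scale, against 0.22 over all genes, while it was 0.17 in chronic CORT+ENZA, against 0.19 over all genes. Compared with the 500 genes nearest in level, the pooled SD within groups of Sdf2l1 was larger than that of 90.4% (acute) and 99.4% (chronic), and that of Creld2, a disulfide isomerase, larger than 97.4% and 99%. Derl1, a degradation channel protein, was the steadiest member, with an SD larger than that of 12% and 2.2% of such genes.

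**Figure D2:**
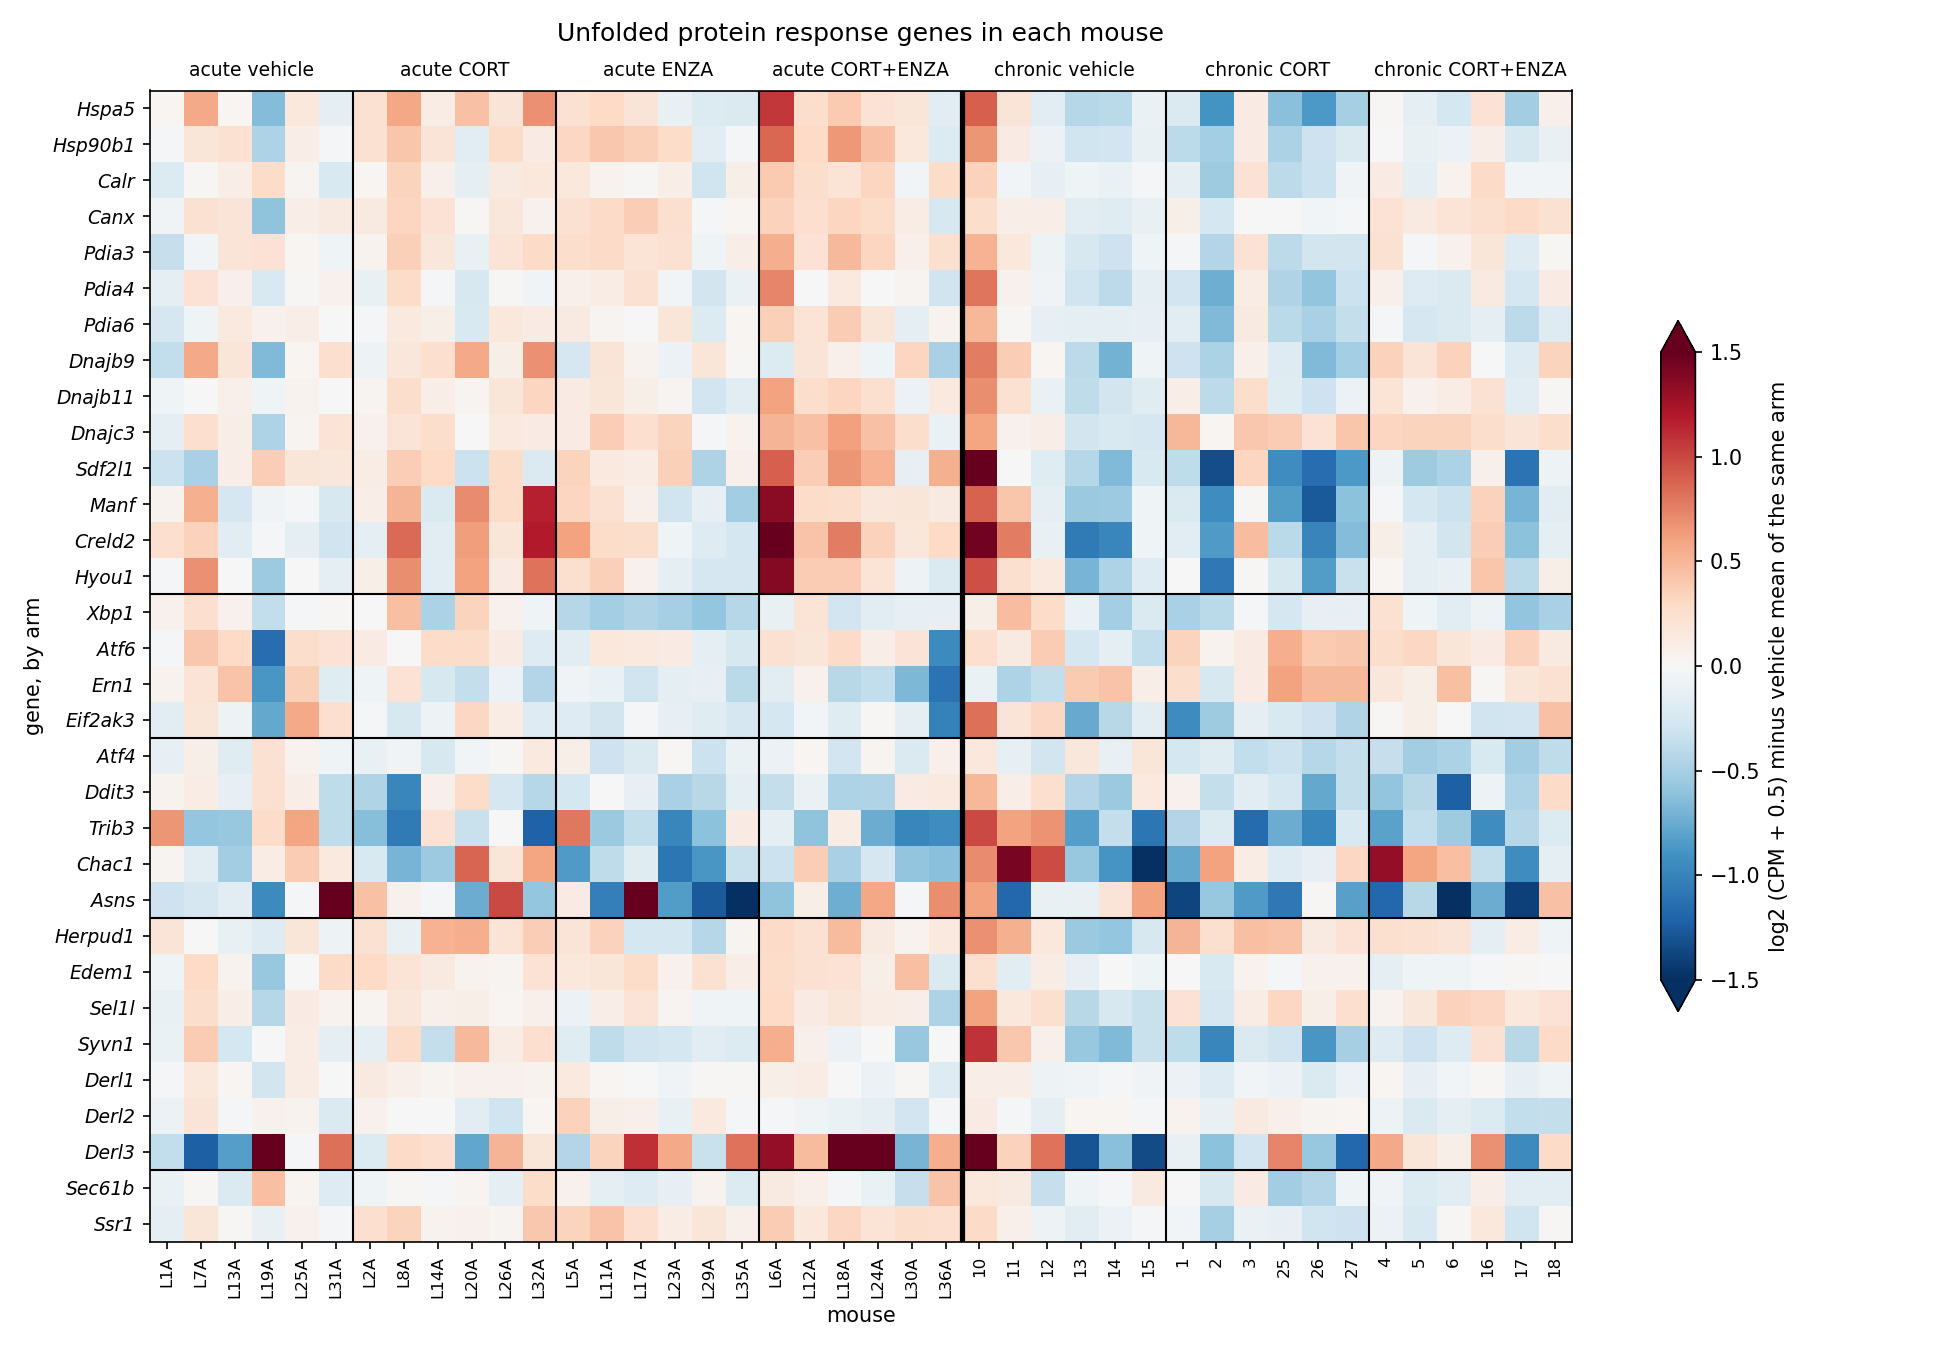
Level of the 32 members in each of the 42 mice, as log2 (CPM + 0.5) minus the vehicle mean of the same arm (colours end at -1.5 and 1.5); genes are ordered by role. The folding genes of chronic vehicle mouse 10 and acute CORT+ENZA mouse L6A are red as blocks, and those of chronic CORT mouse 2 are blue.

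Acute CORT against vehicle asks what a short exposure to the hormone does. None of the 32 members passed the test (edgeR, adjusted p under 0.05), where 1.62% of all genes tested did; 3 members had an unadjusted p under 0.05, and DESeq2 and limma-voom also called 0. The folding genes lay on the higher side of vehicle, 13 of 14 above 0 with a median log2 fold change of 0.16, against -0.01 over all genes. Hspa5, the chaperone BiP, ranged over 202, 321 and 470 CPM (lowest, median and highest of 6 mice) in vehicle and 342, 399 and 509 in CORT. These ranges overlap, and its log2 fold change was 0.35 ± 0.18 (SE; edgeR adjusted p = 0.378), with a 95% interval from -0.02 to 0.71. Creld2 (0.51 ± 0.29) and Manf (0.47 ± 0.23), a factor bound to BiP, had the largest fold changes of the group at edgeR adjusted p = 0.445 and 0.355. Outside the folding genes, Herpud1 was at 391 ± 43.1 CPM (SD, n = 6) in vehicle and 482 ± 78.7 in CORT (log2 fold change 0.30 ± 0.12, edgeR adjusted p = 0.249), and the ATF4 arm had a median of -0.16.

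Under acute ENZA alone, 1 member fell: Xbp1, the factor that IRE1 activates by splicing (chr11:5520659-5525893, + strand, GRCm38). Its messenger RNA was at 267, 354 and 410 CPM in vehicle (lowest, median, highest) and 230, 247 and 256 in ENZA. Every ENZA mouse was below every vehicle mouse, a separation seen in 1.65% of genes in either direction. The means were 347 ± 46.6 and 246 ± 10 CPM (SD, n = 6), and Xbp1 fell by 0.50 ± 0.12 on the log2 scale (edgeR adjusted p = 0.0304). It was the only member called, where 1.31% of genes were called. The fall was also called by DESeq2 and limma-voom and under every other change of filter, scaling or groups, but in only 16 of 24 fits that left out 1 mouse, 8 of them losing it (acute vehicle L1A, L7A, L13A or L25A, or ENZA L11A, L23A, L29A or L35A), with an adjusted p between 0.00611 and 0.0745 over all alternatives. The 14 folding genes, among them several targets of XBP1, had a median of 0.02 with 10 above 0. The ATF4 arm had a median of -0.28 with Chac1 lowest (3.54 ± 0.817 CPM in vehicle and 2.15 ± 0.657 in ENZA, log2 fold change -0.72 ± 0.28, edgeR adjusted p = 0.221). Of 8 hepatocyte markers, 7 lay below vehicle (median -0.28, 5 at an unadjusted edgeR p under 0.05, none called). All 8 Kupffer cell markers lay above it (median 0.33, 1 at an unadjusted edgeR p under 0.05, none called). Kupffer cell markers summed to 616 CPM in ENZA mouse L29A, where vehicle mice reached 256, and without L29A the log2 fold change of Xbp1 was -0.48. The part of these cell types in the values of Xbp1 was not tested.

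With both agents, Xbp1 stood at 282, 317 and 397 CPM, above all ENZA mice (2.13% of genes separate so, in either direction), and at 322 ± 39 on average. Against ENZA its log2 fold change was 0.39 ± 0.12 (edgeR adjusted p = 0.087), which missed the threshold in this fit and passed it in limma-voom, in a fit of these 2 groups alone and without acute CORT mouse L14A (adjusted p 0.0221 to 0.221 over all alternatives). Against CORT it was -0.18 ± 0.12 (edgeR adjusted p = 0.999). The test of the interaction, whether CORT acted differently in the presence of ENZA, gave 0.32 ± 0.17 for Xbp1 (edgeR adjusted p = 0.994), and the interaction called 0% of all genes (501 genes and none of the members had an unadjusted p under 0.05; DESeq2 and limma-voom called 0 members).

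In the combination against vehicle, 13 of 14 folding genes were above 0 with a median of 0.32, against -0.01 over all genes. None of the members was called by edgeR (2.47% of genes were; 9 members had an unadjusted p under 0.05), while DESeq2 called 2 (Pdia3 and Ssr1 higher) and limma-voom 4 (Pdia3, the DNAJ cofactor Dnajc3 and Sdf2l1 higher, Ern1 lower). Over all genes, DESeq2 called 568 of 29712 and limma-voom 650 of 13733. Pdia3 was at 241, 305 and 357 CPM in vehicle and 322, 373 and 446 in CORT+ENZA, with overlapping ranges and a log2 fold change of 0.31 ± 0.10 (edgeR adjusted p = 0.0985). Ssr1, a subunit of the translocon-associated complex, was at 71.6 ± 6.1 and 85.9 ± 4.5 CPM (SD, n = 6), a log2 fold change of 0.26 ± 0.08 (edgeR adjusted p = 0.0709). Mouse L6A stood above the rest of its group, with a Manf level of 96.9 CPM beside 41.4 to 45.6 in the other 5 mice and a Creld2 level of 57.1 beside 15.7 to 24.1. Without that mouse the median was 0.18. Against CORT alone the median was 0.13 (0.175% of genes and no members called, 3 members at an unadjusted p under 0.05, 0 by DESeq2 and limma-voom), and 0.01 without L6A. Against ENZA alone it was 0.21 (1.81% of genes and no members called, 8 at an unadjusted p under 0.05, 0 by DESeq2 and 1 by limma-voom) and 0.14 without L6A. Limma-voom called 603 of 13733 genes against ENZA alone.

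**Figure D3:**
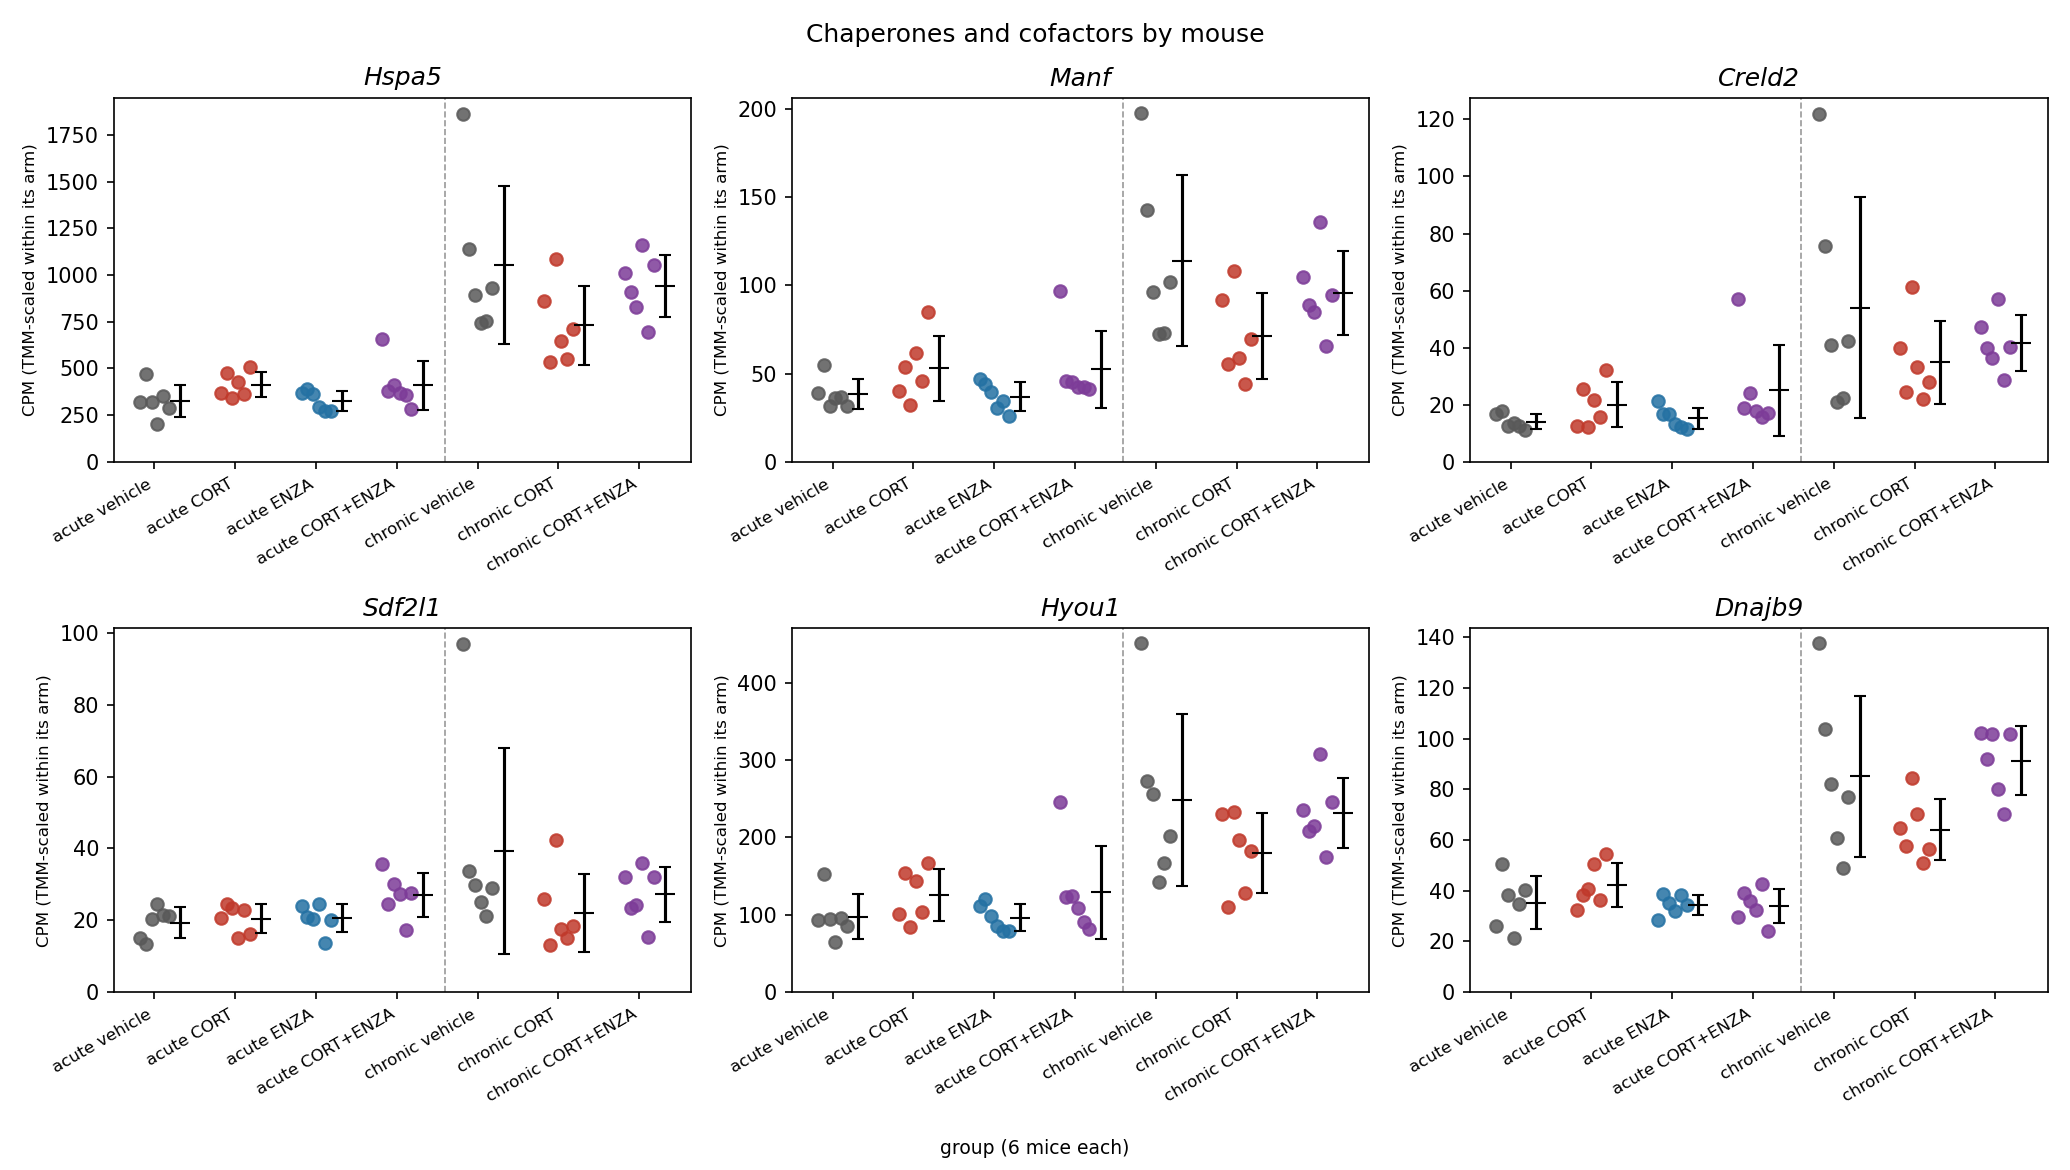
CPM of 6 folding genes in every mouse of the 7 groups (points), with mean and SD (bars); the dashed line parts the arms, which are scaled separately. Chronic vehicle mouse 10 is the top point of its group in all 6 panels, at 1865 CPM for Hspa5, and acute CORT+ENZA mouse L6A stands apart for Hspa5, Manf, Creld2 and Hyou1.

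Chronic CORT against vehicle changed many genes of the liver (18.3% of genes called, 9.04% higher and 9.29% lower), and of the members only Atf4 passed the test in edgeR and in DESeq2, while limma-voom called 4 (Atf4 lower, and Dnajc3, Atf6 and Herpud1 higher). Over all genes, DESeq2 called 2874 of 27099 and limma-voom 3167 of 13099. Atf4 (chr15:80255184-80257541, + strand), the factor translated when PERK is active, was at 75, 93.1 and 104 CPM in vehicle and 67.5, 71.9 and 80.2 in CORT. The groups overlap at their edges. The means were 91.8 ± 12.3 and 72.9 ± 4.49 CPM (SD, n = 6), and Atf4 fell by 0.33 ± 0.08 (log2; edgeR adjusted p = 0.00896), a call held in all 25 alternatives (adjusted p 0.00246 to 0.0269). With 1 of 32 members called, the share of members called is below that of all genes. The other 4 genes of the ATF4 arm also lay below 0 without passing: Asns was at 3.41 ± 1.49 and 1.72 ± 0.797 CPM (-0.99 ± 0.45, edgeR adjusted p = 0.135) and Trib3, a pseudokinase induced by ATF4, at 11.9 ± 6.73 and 6.67 ± 1.9 (-0.82 ± 0.32, edgeR adjusted p = 0.0796). Ddit3 and Chac1 each had a log2 fold change of -0.36, and the median of the arm was -0.36, against -0.01 over all genes.

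The folding genes were below vehicle in 13 of 14 cases under chronic CORT, with a median of -0.36 and no call. Hspa5 was at 745, 912 and 1865 CPM in vehicle and 537, 678 and 1088 in CORT, overlapping ranges with a log2 fold change of -0.53 ± 0.22 (edgeR adjusted p = 0.0996). Manf (-0.67 ± 0.26, 0.0808), Sdf2l1 (-0.83 ± 0.37, 0.13) and the disulfide isomerase Pdia6 (-0.32 ± 0.13, 0.0907) lay likewise below vehicle, with the edgeR adjusted p after each. Dnajc3, which binds BiP and inhibits PERK, was the exception at 201, 232 and 368 CPM in vehicle and 248, 320 and 344 in CORT (0.30 ± 0.12, edgeR adjusted p = 0.102). In all, 8 folding genes had an unadjusted p under 0.05. Single mice on either side moved these values: without vehicle mouse 10 the median was -0.20 with 11 below 0, Hspa5 was at -0.29 and Dnajc3 was called higher (0.44, edgeR adjusted p = 0.00392), and without CORT mouse 3 the median was -0.47 and 6 folding genes were called lower (Hspa5, Hsp90b1, Pdia4, Pdia6, Sdf2l1 and Manf, edgeR adjusted p 0.0186 to 0.0499). Beside Atf4, leaving out vehicle mouse 12 also called Atf6, mouse 13 Eif2ak3 and Trib3, mouse 14 Syvn1 and mouse 15 Trib3.

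Sensors and degradation genes were spread on both sides of vehicle under chronic CORT. Atf6 was at 104 ± 21.6 and 128 ± 16.2 CPM (0.29 ± 0.12, edgeR adjusted p = 0.0835) and Ern1 at 93.4 ± 24.1 and 113 ± 22.8 (0.27 ± 0.16, 0.24). Eif2ak3 had the opposite sign at 27.8 ± 11.2 and 19.4 ± 3.66 CPM (-0.51 ± 0.22, edgeR adjusted p = 0.107), as had Xbp1 at 274 ± 65.3 and 229 ± 27.8 (-0.26 ± 0.15, 0.249). The 7 degradation genes had a median of -0.02. Syvn1, the ubiquitin ligase HRD1, was at 71.5, 105 and 243 CPM in vehicle and 57.3, 84.1 and 98.2 in CORT (-0.65 ± 0.25, edgeR adjusted p = 0.0841), its partner Sel1l at 0.09 and Herpud1 at 0.25, where the 3 proteins share a complex. The translocon genes Sec61b (-0.19) and Ssr1 (-0.23) were not called. Derl3, which is abundant in secretory cells, was at 0.319 to 8.33 CPM in vehicle and 0.416 to 2.93 in CORT. Plasma and B cell markers moved with CORT as well: 5 of 8 tested were called lower, where 9.29% of all genes were. The 10 markers summed to 18.3 to 122 CPM in vehicle, 6.16 to 23.6 in CORT and 7.93 to 65.4 in CORT+ENZA, with the plasma cell gene Mzb1 at 0 to 0.229 in all 3 groups. They also fell in the acute arm, where 4 of 7 tested were called lower in CORT than in vehicle (92 of all 13733 genes). In acute CORT+ENZA against vehicle 4 of 7 were likewise lower (144 of all genes). The 8 pancreatic acinar markers summed to 26.7 to 42.4 CPM in chronic vehicle, 6.18 to 21.5 in chronic CORT (highest in mouse 3) and 6.10 to 10.3 in chronic CORT+ENZA, with no overlap with vehicle. Nearly all of that sum was Cela1, the only acinar marker tested, which was called lower in both (-1.64 and -2.17), while Prss2, Pnlip, Ctrb1, Cpb1, Cel and Amy2b were at 0 in chronic vehicle. Of 8 Kupffer cell markers, 2 were called lower under CORT, their sum being 111 to 343 CPM in vehicle and 98.3 to 172 in CORT, and 1 of 5 stellate markers (171 to 258 and 156 to 222 CPM). The part of these cell types in the values of Derl3 and of other secretory genes was not tested.

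**Figure D4:**
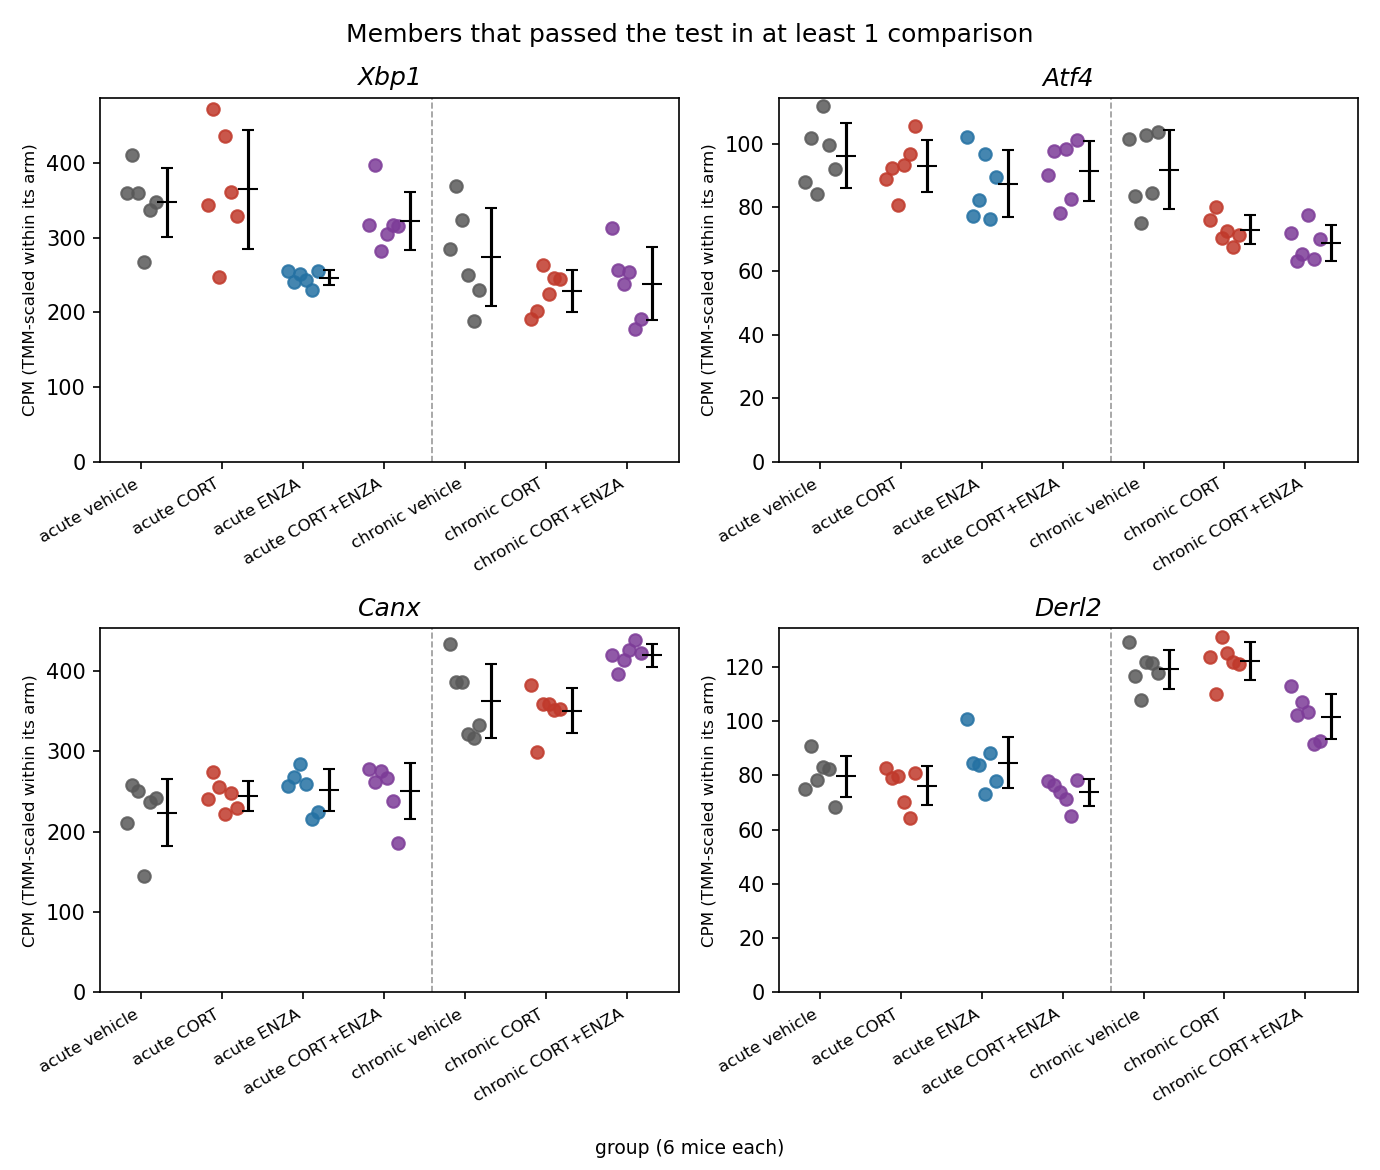
CPM of the 4 members called in at least 1 comparison, in every mouse of the 7 groups (points), with mean and SD (bars); the dashed line parts the arms. Acute ENZA mice sit at 230 to 256 CPM for Xbp1, below all acute vehicle mice, and chronic CORT+ENZA mice at 396 to 439 for Canx, above all chronic CORT mice.

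ENZA added to chronic CORT moved Canx and Derl2, in opposite directions. Canx (chr11:50293961-50325673, - strand), the membrane lectin calnexin, was at 299, 356 and 383 CPM in CORT and 396, 421 and 439 in CORT+ENZA. Every mouse of the combination was above every CORT mouse, as in 6.21% of all genes in either direction. Canx rose by 0.26 ± 0.08 (log2; means 351 ± 27.7 and 420 ± 14.3 CPM, edgeR adjusted p = 0.0469), a call at the edge of the threshold that was made in 5 of 18 fits without 1 mouse and not made with RLE size factors, without the low-count filter or without mice 11 and 18 (adjusted p 0.0169 to 0.145 over all alternatives). The 13 fits without the call were those without vehicle 12 or 15, without any CORT mouse but 1, or without any CORT+ENZA mouse. Derl2 (chr11:71007164-71019841, - strand), a channel protein of ER-associated degradation, was at 110, 123 and 131 CPM in CORT and 91.6, 103 and 113 in CORT+ENZA. Derl2 fell by 0.26 ± 0.07 (means 122 ± 6.9 and 102 ± 8.33 CPM, edgeR adjusted p = 0.0128) and was called in all 25 alternatives (adjusted p 0.00074 to 0.0373). The 2 calls stand beside 11.8% of all genes called, 6.99% higher and 4.86% lower.

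With Canx included, 13 of 14 folding genes lay above chronic CORT when ENZA was added. Their median was 0.26 (0.19 to 0.38 over fits that left out 1 mouse) against 0.00 over all genes, and none but Canx was called. Dnajb9, a DNAJ protein that acts on IRE1, had the largest value at 50.8, 61.1 and 84.5 CPM in CORT and 70.3, 96.9 and 102 in CORT+ENZA (0.51 ± 0.20, edgeR adjusted p = 0.0945). It was called in limma-voom, in the fit of these groups alone and without vehicle mouse 10 (0.0443), with an adjusted p of 0.02 to 0.226 over all alternatives. Hspa5 was at 732 ± 211 and 943 ± 167 CPM (0.37 ± 0.22, edgeR adjusted p = 0.301). The ATF4 arm had a median of 0.05, with Atf4 at 72.9 ± 4.49 and 68.6 ± 5.66 CPM (-0.09 ± 0.08, edgeR adjusted p = 0.55), and Syvn1 was at 0.44 ± 0.25 (0.287). Of 8 hepatocyte markers, 4 were called lower in the combination than in CORT. All 8 Kupffer cell markers lay above CORT, 2 of them called (sum 135 to 620 CPM against 98.3 to 172), as did all 5 stellate markers, 1 called (146 to 438 against 156 to 222), and mouse 18 had the highest sum of both. The part of these cell types in the folding gene values was not tested.

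Against chronic vehicle, the combination had Atf4 at 63.2, 67.7 and 77.7 CPM and lower by 0.42 ± 0.08 (log2; edgeR adjusted p = 0.00137), called in all 25 alternatives (5.73e-05 to 0.00641). Derl2 was lower by 0.23 ± 0.07 (119 ± 7.07 and 102 ± 8.33 CPM, edgeR adjusted p = 0.0198), a call lost without CORT+ENZA mouse 17 (0.0596) and without the low-count filter (0.0999), with an adjusted p of 0.0071 at the lowest. These are the 2 members called, where 18.6% of all genes were (10.3% higher, 8.29% lower). DESeq2 called 3 (Canx higher beside these) and limma-voom 6 (Canx, Dnajc3 and Atf6 higher, Atf4, Asns and Derl2 lower). Over all genes, DESeq2 called 2818 of 27099 here and limma-voom 3833 of 13099. Both groups overlapped in every member, while 8.08% of all genes separated them. This comparison and the 2 before it share their vehicle or CORT mice. The folding genes had a median of -0.10 with 8 below 0, and the direction turned in limma-voom with all mice, to 0.09 with 9 above 0, and without vehicle mouse 10, to 0.11 with 11 above 0 and with Canx and Dnajc3 called higher (edgeR adjusted p = 0.0245 and 0.00639).

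**Figure D5:**
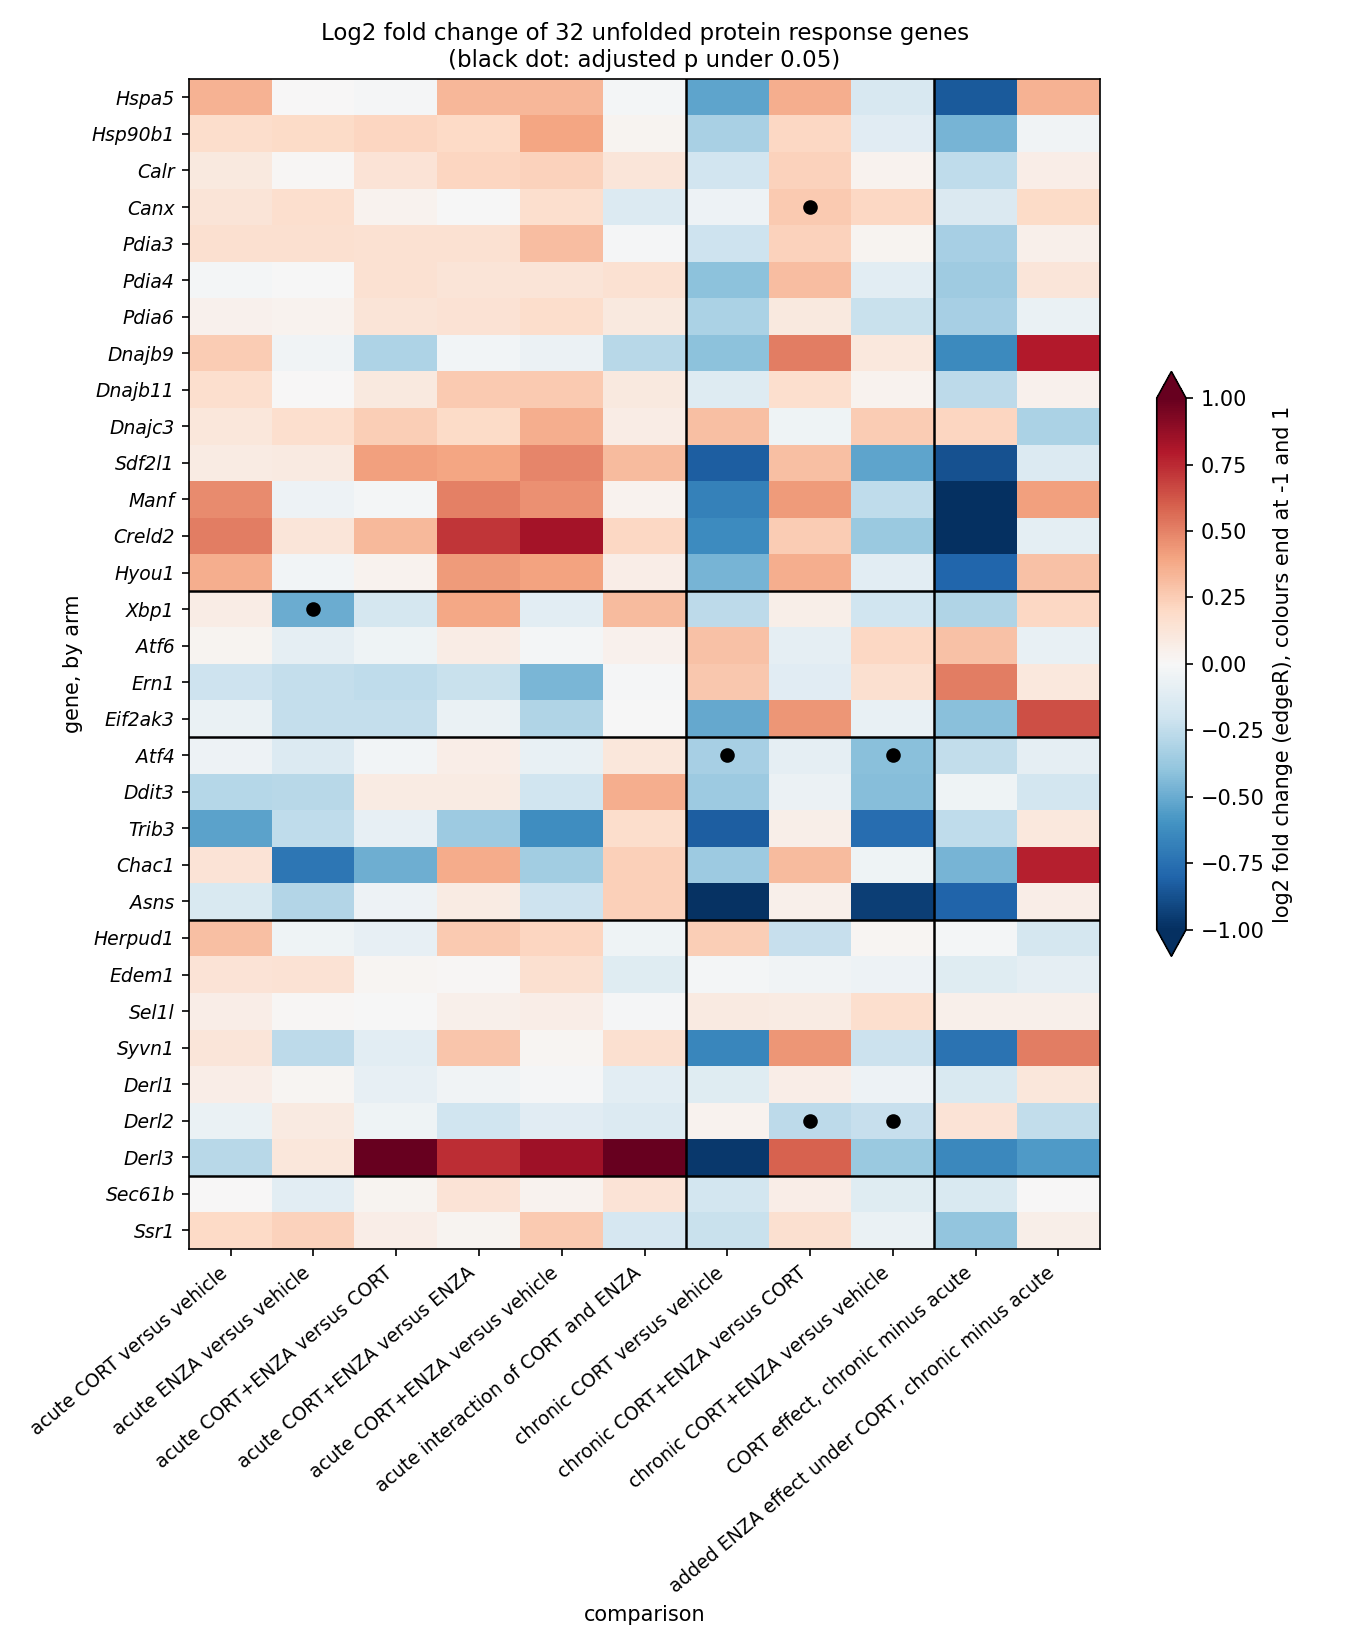
Log2 fold change of each member (edgeR) in the 9 comparisons within an arm and the 2 differences between arms (colours end at -1 and 1); dots mark an adjusted p under 0.05. The 6 dots belong to Xbp1, Canx, Atf4 and Derl2, and the folding genes are mostly red in the acute CORT columns and mostly blue under chronic CORT.

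The effect of CORT in the chronic arm minus that in the acute arm was tested as such over all 42 livers. No member passed in edgeR, where 6.17% of genes did (3.73% higher, 2.44% lower); 11 members had an unadjusted p under 0.05, DESeq2 called 3 (Hspa5, Manf and Ssr1, all lower) and limma-voom 1 (Atf6, higher). Over all genes, DESeq2 called 1063 of 31405 and limma-voom 1650 of 14138. The folding genes were below 0 in 13 of 14 cases with a median of -0.41, against 0.01 over all genes. Manf had -1.11 ± 0.36 (edgeR adjusted p = 0.0577), Hspa5 -0.84 ± 0.29 (0.0733) and Ssr1 -0.39 ± 0.13 (0.0527). Without chronic vehicle mouse 10 the median was -0.26 and Manf and Hspa5 were at -0.88 and -0.60. The added effect of ENZA under CORT, chronic minus acute, called no member (1.27% of genes; 3 members at an unadjusted p under 0.05, 0 by DESeq2 and limma-voom), and the largest value was that of Dnajb9 (0.79 ± 0.27, edgeR adjusted p = 0.141), which was called in a fit of these groups alone.

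Lists of further genes of the pathway held 168 symbols, 167 with an ID. Under chronic CORT, of 30 translocon and glycosylation genes tested, 7 were lower and none higher (9.29% and 9.04% of all genes), and the 4 with the smallest p were Tram1, Stt3a, Spcs3 and Ddost. Tram1, which helps chains into the ER, was at 163, 187 and 242 CPM in vehicle and 109, 130 and 141 in CORT, with no overlap, as in 8.43% of all genes (-0.57 ± 0.10, edgeR adjusted p = 0.000445). Stt3a, the catalytic subunit that attaches N-glycans, was at 136, 149 and 193 and 99.8, 112 and 124.7 CPM, again apart (-0.43 ± 0.08, edgeR adjusted p = 0.00107). The signal peptidase subunit Spcs3 (-0.44 ± 0.10, edgeR adjusted p = 0.00443) and Ddost (-0.33 ± 0.08, 0.00625), of the same glycosylating complex as Stt3a, also fell. With ENZA added, 4 of the 30 were higher than in CORT and none lower (6.99% and 4.86% of all genes): Stt3a (0.35 ± 0.08, edgeR adjusted p = 0.00763), Ddost (0.28 ± 0.08, 0.0271), Ostc (0.42 ± 0.13, 0.0465) and Sec61a1, the pore of the translocon (0.31 ± 0.10, 0.0486). The difference of the CORT effect between arms called 6 of the 30 lower and none higher, where 2.44% and 3.73% of all genes were. Among them were Tram1 (-0.64 ± 0.15, edgeR adjusted p = 0.00531) and Stt3a (-0.58 ± 0.14, 0.00629). In the same test, 2 of 29 listed folding enzymes, 1 of 28 ATF4 targets and 0 of 25 degradation genes were lower, and none of these was higher. Without vehicle mouse 10, 6 of the 30 were lower under chronic CORT, Ostc having been lost, and 7 were higher with ENZA added. Over all 13247 genes of that fit, 1017 were lower under chronic CORT and 920 higher with ENZA added.

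Of 29 other folding enzymes tested, 6 were lower and none higher under chronic CORT, where 9.29% and 9.04% of all genes were. Fkbp11, a prolyl isomerase of secretory cells, was at 10.7, 13.9 and 18.8 CPM in vehicle and 5.08, 6.73 and 8.61 in CORT (-1.08 ± 0.19, edgeR adjusted p = 0.000564), followed by Pdia5 (-0.51 ± 0.12, 0.00568), the HSP70 protein Hspa13 (-0.48 ± 0.14, 0.0184) and Dnajc10 (-0.33 ± 0.10, 0.0283). The sum of plasma and B cell markers given above was also lower under CORT. So was Cela1, which made up nearly all of the acinar sum. The part of either in these values was not tested. Without vehicle mouse 10 the counts were 3 lower and 1 higher, Dnajc10, Ppib and Ppic being lost and Dnajc1 gained. Of all 13247 genes in that fit, 1017 were lower and 1019 higher. With ENZA added, 4 of the 29 were higher than in CORT and none lower (6.99% and 4.86% of all genes), Pdia5 (0.49 ± 0.12, edgeR adjusted p = 0.0109), Hspa13 (0.47 ± 0.14, 0.032), P4hb, the abundant disulfide isomerase, at 1873 against 1539 CPM (0.28 ± 0.09, 0.0368), and Sil1 (0.26 ± 0.08, 0.0473).

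Targets of ATF4 outside the members moved in both directions. Under chronic CORT, 5 of 27 tested were lower and 1 higher, against 9.29% and 9.04% of all genes. The 4 with the smallest p were Aldh18a1, of proline synthesis, at 0.594 against 2.75 CPM (-2.19 ± 0.50, edgeR adjusted p = 0.00557), the glycine transfer RNA ligase Gars (-0.30 ± 0.07, 0.0087), the amino acid carrier Slc7a5 (-0.71 ± 0.20, 0.0185) and the asparagine ligase Nars (-0.27 ± 0.08, 0.0211). The higher one was Ddit4 (1.29 ± 0.39, 0.0274), an inhibitor of mTOR signalling that is also a glucocorticoid target. Without vehicle mouse 10, 3 were lower (Aldh18a1, Gars and Slc7a5) and none higher, where 1017 of all 13247 genes were lower and 1019 higher. With ENZA added, the counts were near the share of all genes (6.99% higher, 4.86% lower): 2 were higher than in CORT (the stress hormone Gdf15, 1.87 ± 0.52, edgeR adjusted p = 0.0274, and Cth, 0.45 ± 0.14, 0.0477) and 2 lower (Atf5, -0.63 ± 0.16, 0.012, and Cebpg, -0.31 ± 0.10, 0.0465). Against vehicle without its mouse 10, the combination had 5 of the 27 lower and 2 higher, beside 1019 and 1248 of all 13247 genes. With all mice the counts were 6 lower and 4 higher, beside 8.29% and 10.3% of all genes. The smallest p belonged to Eif4ebp1, a repressor of translation (-0.30 ± 0.06, edgeR adjusted p = 0.0028), the mitochondrial serine enzyme Shmt2 (0.40 ± 0.09, 0.00457), the serine ligase Sars (-0.31 ± 0.08, 0.00853) and Vldlr, a lipoprotein receptor (-1.71 ± 0.44, 0.0101).

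Genes of ER export and of degradation went both ways under chronic CORT, 3 higher and 3 lower of 27 and 2 higher and 2 lower of 25, counts near the share of all genes (9.04% higher, 9.29% lower). Mcfd2, a cargo receptor partner, was at 176, 189 and 221 CPM in vehicle and 247, 260 and 296 in CORT (0.44 ± 0.07, edgeR adjusted p = 0.000317), and the coat subunit Sec23a was also higher (0.38 ± 0.08, 0.00217). Tmed9, a cargo carrier between ER and Golgi, averaged 84.4 CPM in vehicle and 49.9 in CORT (-0.76 ± 0.13, edgeR adjusted p = 0.00051), and Sec23b, the paralog of Sec23a, was lower (-0.55 ± 0.13, 0.00668). The ubiquitin ligase Rnf139 was higher (0.23 ± 0.06, edgeR adjusted p = 0.0195), and the membrane selenoproteins Selenos (-0.45 ± 0.12, 0.0116) and Selenok (-0.31 ± 0.09, 0.0174) lower. With ENZA added, 2 of the 27 export genes were higher than in CORT and 1 lower. Of the 25 degradation genes, 2 were higher and none lower (6.99% and 4.86% of all genes). In the export list 23 of 27 lay above 0, and the 1 called lower was Mcfd2 (-0.32 ± 0.07, edgeR adjusted p = 0.00526). Ubxn4, which brings p97 to the ER membrane, was at 143, 151 and 188 CPM against 99.6, 111 and 120 (0.50 ± 0.10, edgeR adjusted p = 0.00198). Among 24 regulators, 4 were lower and none higher under chronic CORT (9.29% and 9.04% of all genes). When vehicle mouse 10 was left out, 1 was lower, beside 1017 of all 13247 genes. With ENZA added, 1 was higher and none lower (6.99% and 4.86% of all genes). This was the double-stranded RNA kinase Eif2ak2, a relative of PERK (0.77 ± 0.11, edgeR adjusted p = 9.67e-05).

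In the acute arm 3 genes of the wider pathway were called, 1 of 25 degradation, 1 of 27 export and 1 of 24 regulator genes, and none in the other lists. Over all genes, 1.62% were called in CORT against vehicle, 1.81% in the combination against ENZA and 2.47% against vehicle, so these counts are near the background. Ube2g2, a ubiquitin-conjugating enzyme of ER-associated degradation, was at 10.9, 17.7 and 21.8 CPM in vehicle and 24, 27.9 and 30.5 in CORT (0.66 ± 0.12, edgeR adjusted p = 0.00288). It was also higher in the combination than in ENZA (0.59 ± 0.12, edgeR adjusted p = 0.00793) and than in vehicle (0.58 ± 0.12, 0.00736). The other two, the export GTPase Sar1b (0.32 ± 0.08, edgeR adjusted p = 0.0244) and the liver factor Creb3l3 (0.38 ± 0.10, 0.0307), were higher in the combination than in vehicle.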

How the data were processed

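The authors deposited raw counts, with a column for each library and a table for each arm, from 42 stranded, mRNA-enriched liver libraries sequenced as 100 bp paired ends, per the labels. Per the submitters' processing notes, reads were handled with STAR 2.7.3a, HTSeq 0.12.4, FastQC and MultiQC on build mm10; neither the annotation release nor the strand setting is stated there. Lines that name no gene, among them reads aligned to several places (9.34 to 12.8% of read pairs in acute and 18.6 to 22.7% in chronic libraries), entered neither library sizes nor tests.

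The 32 members, the 6 lists of other pathway genes and the tests were chosen with earlier results of these data known. Of the lists, up to 4 genes with the smallest p among those called are named per comparison, except some not reported here; all other names beyond the members were chosen after their values were seen. IDs were matched to symbols (55394 of 55573), and coordinates, exon lengths and overlaps came from GENCODE on GRCm38. The analysis used edgeR 4.0.16 in R 4.3.3: filterByExpr (minimum count 10, minimum total 15), TMM scaling, a robust quasi-likelihood fit of group means over all libraries of an arm, or over both arms for differences between them, Benjamini-Hochberg adjustment over all 13733 acute, 13099 chronic or 14138 joint genes, and a call at an adjusted p under 0.05. Levels are CPM scaled within an arm, the error after a fold change is its standard error, and the script was tested on simulated data. The labels give each library as a mouse of its own, and they do not say how mice were housed or treated together. Alternatives were DESeq2 1.42.0, limma-voom with quality weights (limma 3.58.1), RLE scaling, no or a stricter low-count filter (CPM of 1 in 6 libraries), the compared groups alone, sets of acute mouse numbers as a term, and each mouse left out; leaving out L19A with L36A, 11 with 18, or 10 for the other pathway genes was chosen after seeing the data.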

Additional observations from a re-analysis of the deposited data

Results flagged for a closer look

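In 27 of 224 groups of 6 mice (32 members in 7 groups), the highest or lowest mouse lay far from the others. Its gap to the nearest one, as a share of the group's range, exceeded Dixon's critical value. For independent groups, chance gives about 1 in 20. These groups reuse the same mice over related genes, so the 27 cannot be set against that rate. Chronic vehicle mouse 10 was the high one 8 times: Hspa5 at 1865 CPM, Hsp90b1 at 1206, Calr at 1035, Pdia4 at 379, Pdia6 at 444, Dnajc3 at 368, Sdf2l1 at 97.0 and Derl3 at 8.33. Acute CORT+ENZA mouse L6A was the high one 5 times: Hspa5 at 660 CPM, Pdia4 at 205, Manf at 96.9, Creld2 at 57.1 and Hyou1, a large chaperone of the HSP70 family, at 245. Mouse 10 was also the highest of its group in all 14 folding genes, and L6A in 11 of them.

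Acute CORT+ENZA mouse L36A was the low one for Atf6 at 35.3 CPM, Eif2ak3 at 6.00 and Sel1l at 95.7, and mouse L12A of the same group the high one for Xbp1 at 397 and Chac1 at 4.61. Acute vehicle mouse L7A was high for Manf at 54.6 and Hyou1 at 152.0 CPM, L19A for Sec61b at 55.7 and L31A for Asns at 12.2. In the acute ENZA group L17A was high for Asns at 11.9 CPM, L5A for Derl1 at 117, and L29A low for Calr at 632. Acute CORT mouse L2A was high for Derl1 at 116 CPM and chronic CORT mouse 2 low for Edem1, a mannosidase-like degradation factor, at 192.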

How the results depend on the processing

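No direction of a called member reversed under any alternative. The 64 counts of members called that moved by over 1.5 times were as follows. DESeq2 called 2 members in acute CORT+ENZA against vehicle and 3 in the chronic minus acute effect of CORT. Limma-voom called 1 in acute CORT+ENZA against ENZA, 4 in acute CORT+ENZA against vehicle, 4 in chronic CORT against vehicle, 6 in chronic CORT+ENZA against vehicle and 1 in the chronic minus acute effect of CORT. RLE scaling called 1 in chronic CORT+ENZA against CORT and 1 in the effect of CORT between arms; no low-count filter called 1 in chronic CORT+ENZA against CORT and 1 against vehicle; the stricter filter called 2 in the effect of CORT between arms; the groups alone called 1 in acute CORT+ENZA against ENZA and 1 in the added effect of ENZA between arms. Without L19A and L36A, 1 was called in acute CORT+ENZA against vehicle and 1 in the effect of CORT between arms; without 11 and 18, 2 in chronic CORT against vehicle and 1 in chronic CORT+ENZA against CORT. Leaving out 1 mouse gave 0 to 1 in acute ENZA against vehicle, 0 to 1 in acute CORT+ENZA against ENZA (1 without CORT L14A), 0 to 2 in acute CORT+ENZA against vehicle (1 without vehicle L7A or L19A, 2 without CORT+ENZA L36A), 1 to 7 in chronic CORT against vehicle (7 without CORT 3), 1 to 3 in chronic CORT+ENZA against CORT (3 without vehicle 10), 1 to 4 in chronic CORT+ENZA against vehicle (4 without vehicle 10, 1 without CORT+ENZA 17) and 0 to 3 in the effect of CORT between arms (3 without acute vehicle L7A or chronic CORT 3, 2 without acute CORT L14A or chronic vehicle 13, and 1 without acute CORT L20A or L26A, acute CORT+ENZA L6A, chronic CORT 1, chronic vehicle 12 or 14, or chronic CORT+ENZA 16, 17 or 18). The causes were not tested. The labels name no pairs of mice and do not say what consecutive numbers share, so the main fits are unpaired. Consecutive acute numbers form sets with 1 mouse of each group. These sets, tried as a term, left the acute counts of members called as they were. Over all genes, calls for CORT against vehicle were 286 with the term and 222 without. For CORT+ENZA against vehicle they were 427 and 339, and for ENZA against vehicle 191 and 180. For CORT+ENZA against ENZA they were 271 and 248, and against CORT 23 and 24. Low counts of Asns, Chac1, Ddit3 and Derl3, under 20 CPM in all mice, limit their precision.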

Other observations

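The ERSE was also found in the windows of 28 genes outside the members, of which 11 (acute) and 8 (chronic) were tested. Under chronic CORT their median log2 fold change was -0.31, with 1 called higher and 2 lower, beside -0.32 over the 9 members with the motif, -0.26 over the 19 members with a window and no match, and -0.01 over all genes. In acute CORT+ENZA against vehicle the medians were -0.13 over the 11 other genes, 0.33 over the members with the motif and -0.06 over those without. Motif and role overlap, since 7 of the 9 members with the motif are folding genes and none is of the ATF4 arm. All 14 folding genes together had a median of 0.32 in that comparison. These are descriptions, with no test.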
